A study of Mus musculus with 12 samples.

Results

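The keratins of simple epithelium are the intermediate filament proteins of single-layered linings such as that of the gut. The 6 genes Krt7, Krt8, Krt18, Krt19, Krt20 and Krt23 were taken by name, each through the array probe set whose platform annotation names that gene and no other, out of 21408 genes measured with a probe set of their own. All 6 were found, each with 1 probe set, and none was left out by a filter on low values. RNA came from small intestine of 6 BALB/c mice given tauroursodeoxycholic acid (TUDCA), a taurine-conjugated bile acid, at 200 mg/kg by daily injection into the peritoneum, and of 6 BALB/c mice given an equal volume (200 µl) of vehicle. Both groups were wild type and had been irradiated and transplanted with bone marrow and T cells of C57BL/6N donors, a model of acute graft-versus-host disease, and the tissue was taken on day 14. No age of the mice was found in the labels. Single mice are not named in the labels, so the p-values measure the spread between arrays, each taken as 1 mouse.

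A keratin filament is built from pairs of an acidic type I and a basic type II keratin, and neither type polymerises alone. Krt8 and Krt7 encode type II proteins, and Krt18, Krt19, Krt20 and Krt23 encode type I proteins. In the gut, the Krt8 protein pairs mainly with those of Krt18, Krt19 and Krt20, and the filaments lie under the brush border and attach to desmosomes, where they give the epithelium mechanical strength. Mice lacking Krt8 are known to develop colitis and hyperplasia of the colon.

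Krt8 was the 1 keratin of the 6 that passed the test, and it was higher with TUDCA by 0.28 ± 0.06 log2 units (SE), a fold of 1.21 (95% interval 1.12 to 1.32; adjusted p = 0.0169 in limma, Benjamini-Hochberg over all 23991 probe sets). The differences of Krt18 (0.50), Krt23 (0.42), Krt19 (0.27), Krt7 (0.25) and Krt20 (0.15) were also above 0 but did not pass, with adjusted p from 0.0776 to 0.288 in limma. Over all probe sets 1.00% were called higher, against 1 of these 6. The median difference of the 6 was 0.28, and that of all probe sets was 0.01. At an unadjusted p under 0.05 all 6 were higher, against 7.24% of all probe sets, and none was lower, against 6.84%. At an adjusted p under 0.1 in limma, 3 of the 6 were higher (Krt8, Krt18 and Krt7), against 1.79% of all probe sets. The 6 share the same arrays and were chosen with earlier results of these data known, so their common direction is a description. Expression is given throughout as the deposited log2 value, and a difference is TUDCA minus vehicle on that log2 scale, estimated with the number range described next as a term.

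The labels number the samples in a low range, with TUDCA replicates 1 and 2 and vehicle replicates 1 to 4, and a high range, with TUDCA replicates 3 to 6 and vehicle replicates 5 and 6, with no word on the meaning of these ranges. Array medians lay between 5.90 and 5.95, and correlations between arrays across probe sets between 0.984 and 0.993. The description field of the labels names CXCL12-abundant reticular cells, whereas the tissue field and the design text name small intestine. Mean log2 values over the arrays ran from 8.12 to 12.26 for 17 pan-epithelial genes, all above the array medians, and from 5.26 to 13.46 for 15 enterocyte genes, of which Fabp1 and Lct lay below the medians in both groups. They ran from 4.55 to 10.85 for 12 genes of fibroblasts and reticular cells, of which Foxc1 and Ebf3 lay below the medians, and Cxcl12 itself was at 7.70 ± 0.29 under TUDCA and 7.72 ± 0.30 under vehicle (SD, n = 6 each). Epithelial and stromal genes were thus both measured. The enterocyte gene Anpep had means of 13.35 under TUDCA and 13.57 under vehicle, and the enterocyte gene Apob of 12.49 and 12.96. Levels of different probe sets cannot be set against each other, and the mix of cells in the RNA was not tested. The tissue field and the design text were followed here. TUDCA replicates 1 and 2 were the 2 highest arrays for 5 of the 6 keratins, Krt20 being the exception, and values without each of them are given below. Precision is limited throughout by the number of arrays.

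Krt8 and Krt18, the partner pair of simple epithelia, are direct neighbours on chromosome 15 with no protein-coding gene between them, and lie on opposite strands (RefSeq, GRCm38.p6). Krt7 lies on the same chromosome with 23 protein-coding genes between it and Krt8. Krt20 and Krt23 are neighbours on chromosome 11, with Krt19 on that chromosome beyond 49 protein-coding genes. The 250 bases before the annotated start of Krt8, Krt18 and Krt7 are printed because these keratins had the smallest p-values of the 6. Of the 6 genes 5 matched a promoter entry of RefSeq, Krt19 being the other. Windows are in GRCm38.p6 coordinates, written 5′ to 3′ along the strand of the gene: Krt8 at chr15:102004343-102004592 (minus strand), Krt18 at chr15:102027966-102028215 (plus strand) and Krt7 at chr15:101412153-101412402 (plus strand). Capitals mark GGGCGG, the GC box bound by Sp1, and CACCC, a motif of KLF factors, on either strand, which appear as CCGCCC and GGGTG where they lie on the opposite one.
Krt8: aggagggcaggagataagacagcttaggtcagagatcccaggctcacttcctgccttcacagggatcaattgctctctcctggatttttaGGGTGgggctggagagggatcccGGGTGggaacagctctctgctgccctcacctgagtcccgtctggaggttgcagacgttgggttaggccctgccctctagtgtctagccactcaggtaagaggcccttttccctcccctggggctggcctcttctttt
Krt18: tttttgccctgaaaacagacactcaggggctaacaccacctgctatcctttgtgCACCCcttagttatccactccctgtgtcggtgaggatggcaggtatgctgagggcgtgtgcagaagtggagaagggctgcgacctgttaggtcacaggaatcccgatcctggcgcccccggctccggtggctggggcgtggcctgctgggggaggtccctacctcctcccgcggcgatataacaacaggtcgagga
Krt7: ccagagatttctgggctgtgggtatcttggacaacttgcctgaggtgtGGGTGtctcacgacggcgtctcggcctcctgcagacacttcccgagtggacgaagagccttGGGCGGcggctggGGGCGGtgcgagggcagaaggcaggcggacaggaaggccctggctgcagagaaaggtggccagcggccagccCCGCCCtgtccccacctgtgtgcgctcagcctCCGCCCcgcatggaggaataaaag
The window of Krt7 held 4 GC boxes and 1 KLF motif, that of Krt8 held 2 KLF motifs and that of Krt18 held 1. Of all 32851 promoter windows of this length, 32.7% held GGGCGG and 52.0% held CACCC on either strand. Neither TGANTCA, the AP-1 motif (6.75% of windows), nor AACNNGTT, the Grainyhead motif (3.64% of windows), was found in the windows of the 5 keratins matched. No match overlapped another. The motifs were chosen with the array results known.

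Of the type II keratins, Krt8 had log2 values of 12.19 at the lowest, 12.40 at the median and 12.65 at the highest array of TUDCA mice, against 12.13, 12.21 and 12.27 in vehicle mice. The groups overlapped through 1 TUDCA array, replicate 3 at 12.19, which lay below the 4 vehicle arrays of the low range, and through no other. Within the low range Krt8 was 12.54 and 12.65 under TUDCA, against 12.21 to 12.27 in the 4 vehicle arrays. Within the high range it ran between 12.19 and 12.41 in the 4 TUDCA arrays, against 12.13 in both vehicle arrays. Krt8 was thus the 1 member of the 6 whose groups did not overlap within either range, a pattern of 2.07% of all probe sets. The difference was 0.36 in the low range alone (adjusted p = 0.0334 in limma) and 0.20 in the high range alone (adjusted p = 0.507 in limma). The call of Krt8 ended without TUDCA replicate 1 (0.28, adjusted p = 0.0642 in limma) and without TUDCA replicate 2 (0.24, adjusted p = 0.0853 in limma), and stood in the other 10 fits that left out 1 array. It also ended without the number range as a term (0.21, adjusted p = 0.15 in limma).

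Krt7, a type II keratin of ducts and glands, had values of 7.41 at the lowest, 7.67 at the median and 8.01 at the highest array of TUDCA mice, against 7.28, 7.63 and 7.66 in vehicle mice. The groups overlapped, and the number ranges differed in level within both groups. In the low range the values were 8.01 and 7.88 under TUDCA, against 7.63 to 7.66 under vehicle. In the high range they ran from 7.41 to 7.72 under TUDCA, and were 7.42 and 7.28 under vehicle. All 6 TUDCA arrays stood above the vehicle mean of their own range for Krt7, as they did for Krt8 and Krt18, a pattern of 8.79% of all probe sets. The difference of Krt7 was 0.25 ± 0.07 (SE; 95% interval 0.10 to 0.40, adjusted p = 0.0862 in limma). It passed in none of the 12 fits without 1 array (0.21 and adjusted p = 0.295 in limma without TUDCA replicate 1, 0.26 and 0.176 without TUDCA replicate 2), nor in the low range alone (adjusted p = 0.13 in limma) or the high range alone (adjusted p = 0.642 in limma). It passed when probe sets dimmer than the median were left out before the fit (adjusted p = 0.0487 in limma) and with array weights (0.28, adjusted p = 0.0311 in limma).

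**Figure D1:**
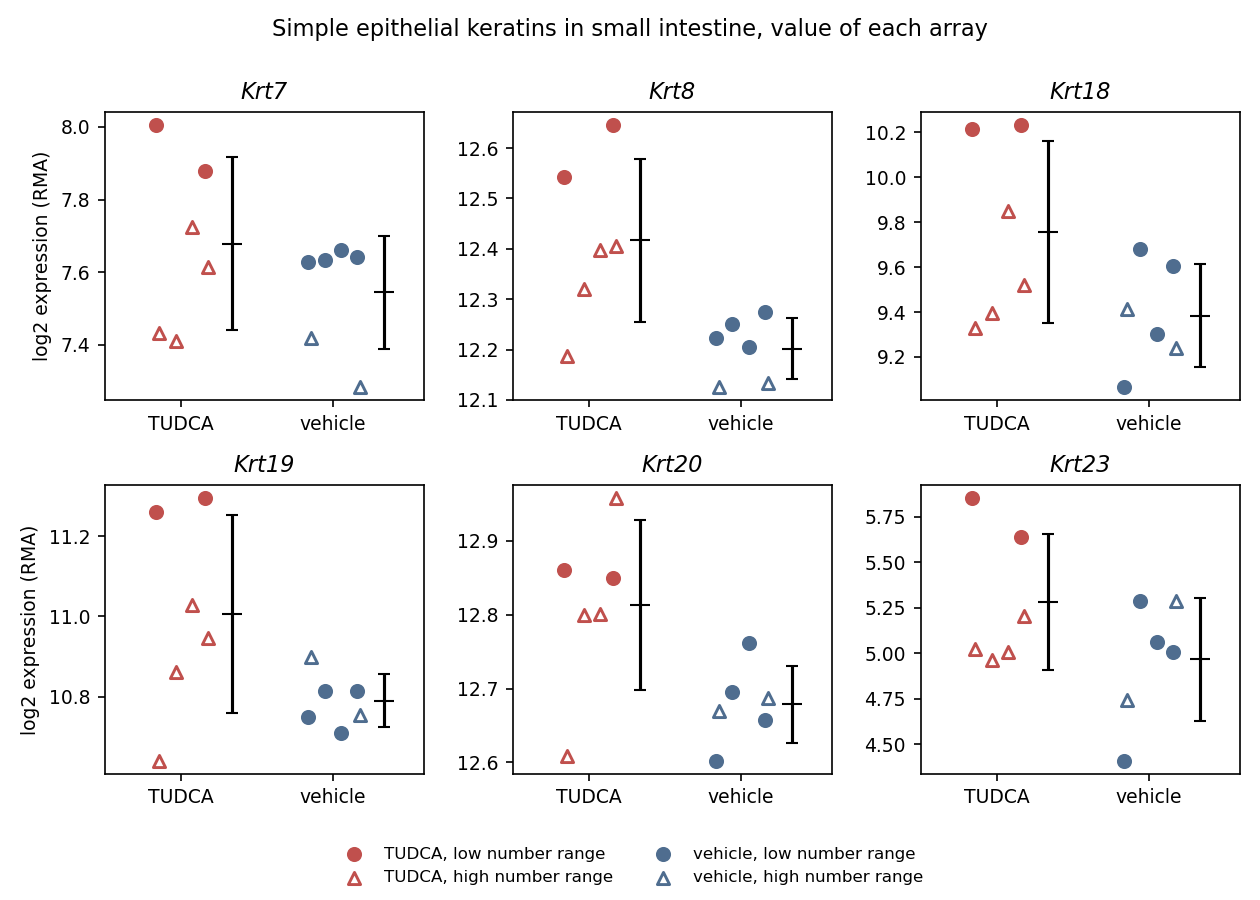
Each panel gives 1 keratin, with the log2 expression of each array on its own vertical scale, TUDCA at the left and vehicle at the right; filled circles are the low and open triangles the high number range, and the bar beside each group is its mean ± SD (n = 6). For Krt8 the TUDCA symbols of each number range lie above the vehicle symbols of the same range, while the lowest open TUDCA symbol (12.19) lies below the filled vehicle ones, and in Krt18, Krt19, Krt23 and Krt7 the 2 filled TUDCA circles are the highest arrays.

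Among the type I keratins, Krt18 had the largest difference of the 6. Its values were 9.33 at the lowest, 9.68 at the median and 10.23 at the highest array of TUDCA mice, against 9.07, 9.36 and 9.68 in vehicle mice. TUDCA replicates 1 and 2 stood at 10.21 and 10.23, above every other array, whereas the 4 TUDCA arrays of the high range ran from 9.33 to 9.85 and overlapped the 2 vehicle arrays of that range at 9.42 and 9.24. The difference was 0.50 ± 0.14 (SE; 95% interval 0.21 to 0.80, adjusted p = 0.0776 in limma). It was 0.81 in the low range alone (adjusted p = 0.0305 in limma) and 0.20 in the high range alone (adjusted p = 0.7 in limma). Krt18 passed without TUDCA replicate 3 (0.55, adjusted p = 0.0452 in limma) and without vehicle replicate 5 (0.61, adjusted p = 0.0364 in limma), and its adjusted p was 0.272 without TUDCA replicate 1 and 0.248 without TUDCA replicate 2 in limma.

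Krt19, the smallest of the type I keratins and one found along crypt and villus, showed the same split. Its values were 10.64 at the lowest, 10.99 at the median and 11.30 at the highest array of TUDCA mice, against 10.71, 10.78 and 10.90 in vehicle mice. TUDCA replicate 3 was the lowest of all 12 arrays, and TUDCA replicates 1 and 2, at 11.26 and 11.30, were the highest. The difference was 0.27 ± 0.09 (SE; 95% interval 0.08 to 0.47, adjusted p = 0.154 in limma), with 0.51 in the low range alone (adjusted p = 0.00849 in limma) and 0.04 in the high range alone (adjusted p = 0.937 in limma). Krt19 passed without TUDCA replicate 3 (0.32, adjusted p = 0.0343 in limma) and without vehicle replicate 5 (0.36, adjusted p = 0.0467 in limma), and its adjusted p was 0.404 without TUDCA replicate 1 and 0.391 without TUDCA replicate 2 in limma.

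Krt20, a keratin of differentiated villus cells, had the smallest difference of the 6. Its values were 12.61 at the lowest, 12.83 at the median and 12.96 at the highest array of TUDCA mice, against 12.60, 12.68 and 12.76 in vehicle mice. Of the 6 TUDCA arrays 5 lay above every vehicle array, and replicate 3, at 12.61, was near the lowest. The difference was 0.15 ± 0.06 (SE; 95% interval 0.02 to 0.27, adjusted p = 0.288 in limma). It passed in none of the 12 fits without 1 array (0.14 and adjusted p = 0.499 in limma without TUDCA replicate 1, 0.14 and 0.444 without TUDCA replicate 2). It depended on the scaling of the arrays, being 0.24 with an adjusted p = 0.0385 in limma after renewed quantile normalisation of the deposited values.

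Krt23, a type I keratin known to be induced by stress in liver, was dim, with a group mean under both treatments below the arrays' medians, where differences are compressed. Its values were 4.96 at the lowest, 5.11 at the median and 5.85 at the highest array of TUDCA mice, against 4.41, 5.03 and 5.29 in vehicle mice. The 2 highest arrays were TUDCA replicates 1 and 2 at 5.85 and 5.64, and the lowest was vehicle replicate 1 at 4.41. The difference of 0.42 ± 0.17 (SE; 95% interval 0.05 to 0.79, adjusted p = 0.283 in limma) was 0.80 in the low range alone and 0.04 in the high range alone. Without TUDCA replicate 1 it was 0.28, without vehicle replicate 6 it was 0.62, and it did not pass in either fit. Without TUDCA replicate 2 it was 0.36 (adjusted p = 0.482 in limma).

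**Figure D2:**
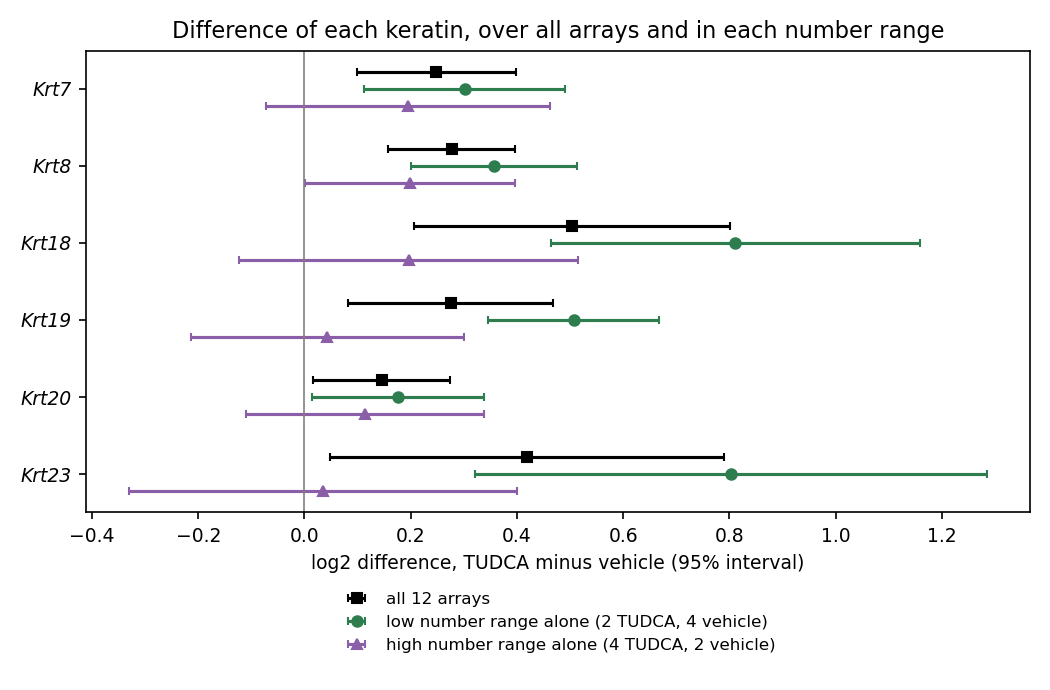
Log2 difference of TUDCA minus vehicle for each keratin with its 95% interval, over all 12 arrays (black squares), in the low number range alone (green circles) and in the high number range alone (purple triangles). All 18 estimates lie above 0, and those of Krt18, Krt19 and Krt23 are 0.81, 0.51 and 0.80 in the low range and 0.20, 0.04 and 0.04 in the high range.

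Whether the response was unequal in the ranges was tested with an interaction of treatment and number range. The difference in the high range minus that in the low range was estimated at −0.62 ± 0.23 for Krt18, −0.46 ± 0.14 for Krt19 and −0.77 ± 0.29 for Krt23 (SE). None of the 6 passed (adjusted p from 0.516 to 0.923 in limma), and no probe set of the table did (0% called; 7.68% at an unadjusted p under 0.05 in limma, among them Krt18, Krt19 and Krt23). The estimates of Krt7, Krt8 and Krt20 were −0.11, −0.16 and −0.06, with 95% intervals of −0.41 to 0.20, −0.38 to 0.07 and −0.32 to 0.20. A response equal in both ranges was not shown by this, since the intervals of Krt18 and Krt19 run from −1.11 to −0.12 and from −0.76 to −0.17.

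**Figure D3:**
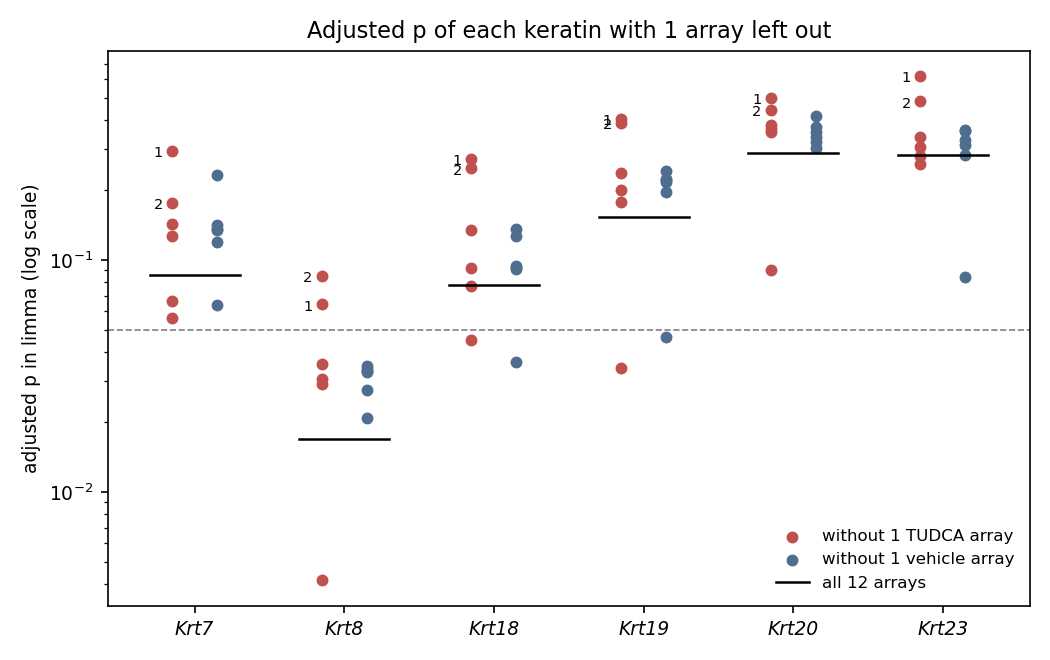
Adjusted p of each keratin in limma (log scale) with 1 array left out; red points leave out a TUDCA array and blue points a vehicle array, the digits 1 and 2 mark the fits without TUDCA replicate 1 or 2, the black line is the fit with all 12 arrays and the dashed line is 0.05. Krt8 lies under the line in 10 of 12 such fits, with the exceptions at 0.0642 and 0.0853.

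The balance between partners was read from the log ratio of 2 keratins within each array. It does not depend on an equal shift of all log2 values of an array, but scaling that varies with brightness remains in it. The log ratio of Krt8 to Krt19 was 1.41 ± 0.09 under TUDCA and 1.41 ± 0.10 under vehicle (SD, n = 6 each), with a difference of 0.00 (95% interval −0.14 to 0.14). That of Krt8 to Krt18 averaged 2.66 ± 0.26 under TUDCA and 2.82 ± 0.21 under vehicle (SD, n = 6 each), a difference of −0.23 (95% interval −0.54 to 0.09). That of Krt8 to Krt20 was −0.40 ± 0.12 under TUDCA and −0.48 ± 0.09 under vehicle (SD, n = 6 each), with a difference of 0.13 (95% interval 0.03 to 0.23), so Krt8 and Krt20 changed unequally by this estimate. The difference of Krt20 depended on the scaling of the arrays, as given above, and the log ratios were not rerun after renewed quantile normalisation. The Krt8 to Krt19 difference was −0.15 in the low range alone and 0.16 in the high range alone, opposite in sign. Of the 15 pairs, the interval excluded 0 for Krt8 with Krt20 and for Krt18 with Krt20 (0.36, 95% interval 0.0039 to 0.71), without adjustment over the pairs. A log ratio between probe sets is no ratio of transcript amounts, and its change alone can be read.

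The residuals of the keratins were positively correlated in all 15 pairs. Treatment and number range were separate terms of that fit, so a treatment difference unequal in the ranges stays in the residuals. The r values are thus not those among mice of the same treatment and range alone. Over the 12 residuals left after treatment and number range, Pearson's r was 0.89 for Krt8 and Krt19, 0.82 for Krt18 and Krt19 and 0.70 for Krt8 and Krt18. The lowest of the 15 pairs was Krt7 with Krt23 at 0.18, and Krt20 had r of 0.66 with Krt8 and 0.35 with Krt18. These points share the array and its scaling, and are given as a description. How high r lies for any pair of probe sets was not computed, so keratin pairs cannot be called closer than others. Among 7295 named probe sets with a mean of at least 7, the residuals most like those of Krt8 were of the small nucleolar RNA gene Snord70 (r = 0.97), the nucleosome assembly gene Nap1l4 (r = 0.96) and the citrate synthase gene Cs (r = 0.95). For Krt18 they were those of Ddt, Snord69 and n-R5s136 (r = 0.97, 0.94 and 0.93), and for Krt19 those of Coro1c, Smarcb1 and Atp5md (r = 0.94, 0.93 and 0.93). For Krt20 they were those of Rab21, Psme1 and Lyrm2 (r = 0.91, 0.88 and 0.88), for Krt7 those of Ang4, Ndufs4 and Zfp326 (r = 0.87, 0.86 and 0.86), and for Krt23 those of Ppp2ca, Zadh2 and Tlcd1 (r = 0.91, 0.88 and 0.87). None of these 18 genes passed the test of TUDCA against vehicle (adjusted p of 0.258 or more in limma).

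Among the other 47 keratins measured, those of skin, hair and stratified epithelia, 1 rose and none fell, against 1.00% and 1.52% of all probe sets, and their median difference was 0.04. The 1 that rose was Krt84, a type II hair keratin, with a difference of 0.71 ± 0.14 (SE, adjusted p = 0.0129 in limma). Its values were 4.69 at the lowest, 5.31 at the median and 5.97 at the highest array of TUDCA mice, against 4.55, 4.81 and 5.02 in vehicle mice, and both group means lay below the medians of the arrays. Its call ended without TUDCA replicate 1 or 2 (adjusted p = 0.0606 and 0.0642 in limma) and without the number range as a term (adjusted p = 0.113 in limma). The others had differences from −0.31 to 0.25 and did not pass, and the mean log2 value of each of the 47 over the arrays lay between 3.56 and 6.25.

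**Figure D4:**
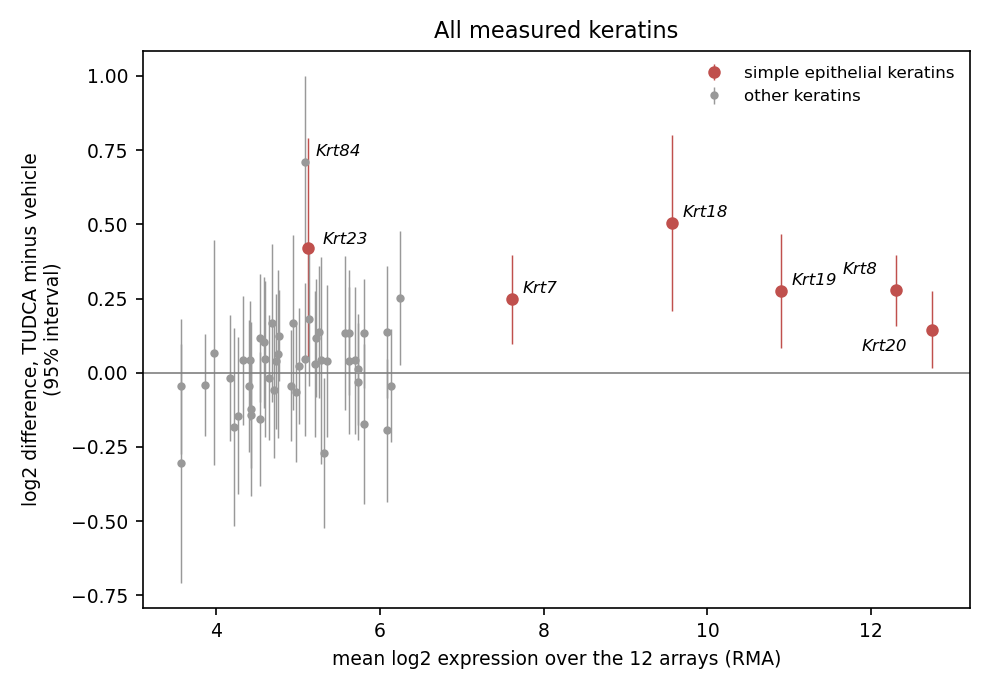
Log2 difference of TUDCA minus vehicle with its 95% interval (vertical) against the mean log2 expression over the 12 arrays (horizontal) for each measured keratin, the 6 simple epithelial ones in red and the other 47 in grey. The red points lie above 0, from 0.15 for Krt20 to 0.50 for Krt18, the grey ones on both sides of it, and horizontal positions of different probe sets are not comparable as transcript amounts.

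No single gene that anchors keratin filaments passed the test, but most had a difference above 0. Of 18 measured genes of keratin linkers, desmosomes and hemidesmosomes none was called in limma. Of these, 15 had a difference above 0, against 53.3% of all probe sets, and the median was 0.11. Their summed level, with values turned back to the linear scale, ran from 15254 to 16256 under TUDCA and from 13789 to 15106 under vehicle. The mean of their log2 values was higher by 0.10 ± 0.02 (SE). A summed level is carried most by bright probe sets, and no background of other gene sets was computed for it or for the mean. The list was chosen with earlier results of these data known, so this is a description. Dsp, encoding desmoplakin, which ties keratin filaments to the desmosome, had values of 11.23 to 11.36 under TUDCA, against 11.10 to 11.24 under vehicle, and a difference of 0.16 ± 0.05 (SE, adjusted p = 0.123 in limma). Ppl, encoding periplakin, a plakin that binds keratins, was at 0.35 ± 0.10 (SE, adjusted p = 0.0799 in limma). Plec, encoding the linker plectin, was at 0.01 ± 0.08 (SE) and Jup, encoding plakoglobin, at 0.05 ± 0.07 (SE). Of 12 measured modifiers and chaperones of keratins, such as the transglutaminase gene Tgm2 (−0.28, adjusted p = 0.189 in limma), none passed and the median was −0.10.

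The intermediate filament genes outside the keratin family include the nuclear lamins that epithelial cells also have. Of 14 measured, 1 rose and none fell, against 1.00% and 1.52% of all probe sets. A difference above 0 was found for 4 of them, against 53.3% of all probe sets, and the median difference was −0.07. Lmna, encoding the nuclear lamins A and C, rose by 0.38 ± 0.07 (SE, adjusted p = 0.0137 in limma), with values of 8.10 to 8.48 under TUDCA, against 7.65 to 8.21 under vehicle. Its call ended without TUDCA replicate 2 (adjusted p = 0.0579 in limma) and without the number range as a term (adjusted p = 0.0895 in limma). Vim, encoding vimentin of mesenchymal and immune cells, was at −0.38 ± 0.10 (SE, adjusted p = 0.0543 in limma), with values of 9.86 to 10.31 under TUDCA, against 10.23 to 10.72 under vehicle. It passed in 2 of the 12 fits without 1 array. These were without vehicle replicate 1 (−0.42, adjusted p = 0.0208 in limma) and without TUDCA replicate 3 (adjusted p = 0.0471 in limma). Of the other alternatives Vim passed in 7 and missed in 7. Among the 7 it passed were the fit without the number range as a term (adjusted p = 0.0423 in limma) and the looser threshold of 0.1. Des, encoding desmin of muscle, was at −0.35 ± 0.16 (SE, adjusted p = 0.327 in limma).

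Of 14 measured epithelial transcription factors 1 rose and 1 fell, against 1.00% and 1.52% of all probe sets. Grhl2, a Grainyhead factor of epithelial junctions, was higher by 0.34 ± 0.08 (SE, adjusted p = 0.0267 in limma), with 7.08 to 7.34 under TUDCA, against 6.78 to 7.10 under vehicle. Jun, a subunit of AP-1, was at −0.50 ± 0.11 (SE, adjusted p = 0.0251 in limma), with 8.54 to 9.47 under TUDCA, against 9.17 to 10.02 under vehicle. The call of Grhl2 ended in 5 and that of Jun in 4 of the 12 fits without 1 array, with TUDCA replicate 1, TUDCA replicate 2 and vehicle replicate 6 among those left out for both, the adjusted p reached 0.108 for Grhl2 and 0.113 for Jun in limma. The call of Grhl2 ended further without TUDCA replicate 4 or vehicle replicate 3, and that of Jun without vehicle replicate 1. Jun also missed the threshold without the number range as a term (−0.30, adjusted p = 0.487 in limma). Of the KLF factors on the list, Klf5, a factor of crypt cells, was at 0.00 ± 0.06 (SE), and Klf4, a factor of differentiated cells, was at −0.23 ± 0.08 (SE, adjusted p = 0.166 in limma). For Klf4, 0 of 6 TUDCA arrays lay above the vehicle mean of their range, and the share of all probe sets with this pattern was not computed.

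In whole tissue, a larger share of a cell type and more RNA per cell of that type cannot be told apart, so markers of the cells that carry these keratins are given beside them. Of 17 measured pan-epithelial genes none rose and 1 fell, the claudin gene Cldn15, against 1.00% and 1.52% of all probe sets. The highest differences, of Esrp2 (0.37, adjusted p = 0.0811 in limma) and Rab25 (0.37, adjusted p = 0.0577 in limma), did not pass. The median difference of the 17 genes was −0.01, with 8 above 0 and 9 below it. Their summed level, the sum of values turned back to the linear scale, ran from 25885 to 30444 in TUDCA arrays and from 27636 to 29194 in vehicle arrays. Epcam, encoding a surface protein of intestinal epithelial cells, was at −0.07 ± 0.06 (SE, adjusted p = 0.663 in limma), and the sign of this small value turned to 0.0070 after renewed quantile normalisation. With the mean of the pan-epithelial genes of each array subtracted from all its probe sets, Krt8 was higher by 0.25 ± 0.05 (SE, adjusted p = 0.0168 in limma), and Krt18 and Krt19 by 0.48 and 0.25 without passing. That mean itself differed by 0.03 ± 0.03 (SE) between the treatments, so its subtraction could change these differences little. The share of epithelium in the tissue was not tested by it. The call of Cldn15 (−0.30, adjusted p = 0.0477 in limma) ended in 9 of the 12 fits without 1 array, standing in those without TUDCA replicate 3, 5 or 6, and ended after renewed quantile normalisation (adjusted p = 0.0743 in limma).

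Markers of epithelial subtypes moved in both directions. The share of all probe sets called was 1.00% higher and 1.52% lower. Of 10 goblet cell genes 3 rose, Spink4 (0.86), Agr2 (0.56) and Spdef (0.38), none fell, and the median was 0.28. Their summed level ran from 28653 to 37256 under TUDCA and from 20517 to 32026 under vehicle. Of 15 enterocyte genes 3 fell, Mep1a (−0.84), Apob (−0.53) and Anpep (−0.23), none rose, and the median was −0.17, with summed levels of 52781 to 60949 under TUDCA and 59349 to 65548 under vehicle. The call of Anpep ended after renewed quantile normalisation (−0.06) and without TUDCA replicate 1 (adjusted p = 0.1 in limma). That of Spink4 ended without TUDCA replicate 2 (adjusted p = 0.0517 in limma) and that of Spdef without TUDCA replicate 1 or 2 (adjusted p = 0.0711 and 0.068 in limma). The call of Agr2 stood in 3 of the 12 fits without 1 array, those without TUDCA replicate 3 or vehicle replicate 4 or 5. The part of goblet and enterocyte genes in the keratin differences was not tested.

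Markers of other cell types, within the lining and outside it, were read in the same way. Beside them, 1.00% of all probe sets were called higher, 1.52% were called lower and 53.3% had a difference above 0. Mesothelium, the outer covering of the gut, makes Krt8, Krt18 and Krt19. None of its 10 markers passed, the median difference was 0.08, and the summed level ran from 845 to 1283 under TUDCA and from 698 to 1360 under vehicle, with Msln at 6.50 ± 0.34 under TUDCA and 6.36 ± 0.35 under vehicle (SD, n = 6 each). None of 10 tuft cell genes passed either (median −0.09), with a summed level of 424 to 527 under TUDCA and 416 to 619 under vehicle, and the defining gene Dclk1 was at 6.08 ± 0.22 under TUDCA and 6.13 ± 0.19 under vehicle (SD, n = 6 each). Mean log2 values over the arrays ran from 4.46 to 6.21 for the tuft cell genes and from 3.43 to 6.19 for the pancreas genes. These lie near or below the array medians, where differences are compressed. None of the 9 crypt and cycling genes (8 above 0, median 0.10), 8 smooth muscle genes (0 above 0, median −0.11), 8 pancreas genes (median −0.05) or 12 fibroblast and reticular cell genes (median 0.00) passed, and of the 8 villus tip genes 1 fell, the nucleoside transporter gene Slc28a2 (−0.90; its call ended in 6 of the 12 fits without 1 array, those without TUDCA replicate 1, 2 or 4 or vehicle replicate 1, 2 or 6). T cell genes were lower, 6 of 9 of them past the threshold, with a median of −0.93 and a summed level of 536 to 1494 under TUDCA, against 1470 to 2628 under vehicle. The 4 with the smallest p were the granzyme gene Gzma (−1.97), the co-receptor genes Cd8b1 (−0.67) and Cd8a (−1.03) and the receptor gene Cd3e (−0.93). The call of Gzma ended without the number range as a term (−1.51, adjusted p = 0.0869 in limma). The lowest T cell level was that of TUDCA replicate 2, an array at which Krt8, Krt18 and Krt19 were highest, and its part in the keratin values was not tested.

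**Figure D5:**
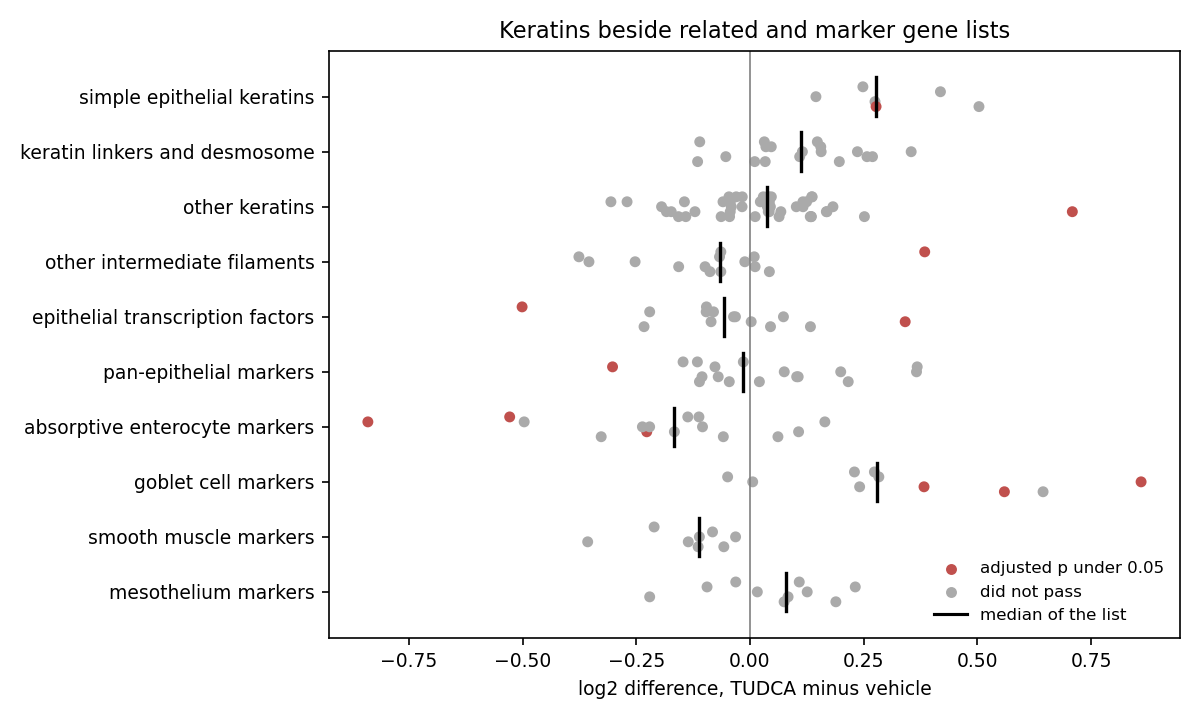
Log2 difference of TUDCA minus vehicle for each gene (points, red where the adjusted p in limma was under 0.05) and the median (black line) of each list. The keratin median of 0.28 stands beside 0.11 for linkers and desmosomes, 0.04 for the other keratins and −0.01 for pan-epithelial markers, and goblet cell markers have a median of 0.28.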

How the data were processed

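RNA of small intestine was labelled with biotin by a low-input whole-transcript kit and hybridised to Affymetrix arrays, per the labels' protocols. Each array came with the log2 expression the authors deposited for every probe set. Per the submitters' processing notes, oligo and RMA (background correction, quantile normalisation and summarisation) were used, with no version named. Array and genome builds were not stated in the labels. RMA makes the arrays' distributions nearly alike, so a shift of all transcripts would not be seen. The deposited distributions were still not equal. Renewed quantile normalisation moved the differences of the bright genes Krt20, Anpep and Epcam upward, as given above. No detection calls came with the values. Of 23991 probe sets, 21557 name 1 gene, 787 several and 1647 none in the platform annotation, and 21472 of the first matched RefSeq by gene ID with no change of symbol.

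Linear models of treatment and number range were run over all probe sets in limma 3.58.1 (R 4.3.3, eBayes with a trend), two-sided, with a threshold of 0.05 on the Benjamini-Hochberg adjusted p. The script was tested on simulated data. The 6 keratins, the gene lists, the motifs and the tests were chosen with earlier results of these data known. Listed genes were named if they passed, up to 4 a list by p, with Vim and Epcam, and the 3 nearest genes of each keratin by residual correlation. Others, such as Dsp, Ppl, Plec, Jup, Tgm2, Des, Klf4, Klf5, Fabp1, Lct, Foxc1, Ebf3, Cxcl12, Msln and Dclk1, were named for their role after their values had been seen. Esrp2 and Rab25 were named for the size of their differences. Of several probe sets of a gene the one with the highest mean was taken. Alternatives left out the range or 1 array, took the replicate number as a block or 1 range alone, or varied the scaling, the filter on dim probe sets, the variance prior, array weights and the threshold. The subtraction of the pan-epithelial mean was chosen after seeing the data. List members without a probe set of their own are not analysed here.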

Additional observations from a re-analysis of the deposited data

Results flagged for a closer look

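The 6 keratins and 18 listed genes were searched for an array that stood apart from the other 5 of its group, judged by the gap to the nearest array as a share of the group's range (Dixon's test). Chance flags about 1 in 20 groups, and 4 of 48 groups were found, none of them of a simple epithelial keratin. Cd8b1 was 6.65 in TUDCA replicate 2, with the next TUDCA array at 7.27, and Cd3e was 6.69 in the same array, with the next at 7.54. Cldn15 was 9.52 in TUDCA replicate 6, with the next TUDCA array at 9.91. Jun was 10.02 in vehicle replicate 6, with the next vehicle array at 9.43.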

How the results depend on the processing

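The keratin differences stayed above 0 in every fit run (Krt23 was not in the one without dim probe sets), and no keratin was called lower in any. Over all probe sets 1.00% were called higher and 1.52% lower, and shares are given below where they moved by over 1.5 times. With treatment as the lone term the Krt8 difference was 0.21 and 0 keratins passed. Under the replicate number as a block, without the range, Krt8 was also 0.21 with 0 passing. With the replicate block and the number range together Krt8 passed at 0.32 (adjusted p = 0.045 in limma), with 0.354% of probe sets higher and 0.792% lower. Same-numbered arrays had correlations of their deviations from the group means from −0.06 to 0.26, and 4 of 6 TUDCA arrays correlated best with their own number. These deviations still hold the number range, so they cannot settle whether the numbers are pairs. The numbers were not taken as pairs in the main fit. The low range alone called 3 keratins, with Krt18 at 0.81 and Krt19 at 0.51, and gave differences in log ratio of Krt8 to Krt19 of −0.15 and to Krt23 of −0.45. The high range alone, with 2 vehicle arrays, called 0 keratins, with Krt8 at 0.20, 0.025% of probe sets higher and 0.0125% lower, and 0.16 for both log ratios. Over all arrays these log ratios differed by 0.0023 and −0.14. Leaving out dim probe sets called 2 keratins, with Krt7 at 0.25, and 2.53% higher and 3.64% lower of the fewer probe sets tested. Renewed quantile normalisation called 2, with Krt20 at 0.24, and turned the sign of the Krt20 interaction (0.0072) and of Epcam (0.0070). Array weights called 4, with Krt7 at 0.28, Krt18 at 0.55 and Krt19 at 0.31, and 1.82% of probe sets higher. A threshold of 0.1 called 3, with Krt7 at 0.25 and Krt18 at 0.50, and 1.79% higher. With the pan-epithelial mean subtracted, an alternative chosen after seeing the data, 0.638% were higher, and the interaction estimates of Krt7 and Krt20 turned to 0.025 and 0.068. The causes were not tested. Without 1 array at a time the differences ran from 0.21 to 0.29 for Krt7, 0.24 to 0.30 for Krt8, 0.42 to 0.61 for Krt18, 0.21 to 0.36 for Krt19, 0.12 to 0.18 for Krt20 and 0.28 to 0.62 for Krt23, with 0 to 3 keratins called. The shares then ran from 0.379% to 1.22% higher and from 0.629% to 1.74% lower, lowest without TUDCA replicate 1. They were 0.446% and 0.788% without TUDCA replicate 2 and 0.613% and 1.00% without vehicle replicate 6, and 0.646% and 0.654% were higher without vehicle replicate 2 and 3. Scanner files were not used here, so the background correction was not varied.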
